A study of Homo sapiens and Mus musculus with 10 samples.

Results

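Accessible chromatin was examined at MYC, MYCN and MYCL, their mouse orthologues Myc, Mycn and Mycl, and across the long-range surroundings of MYC. The 3 human and 3 mouse genes were taken by symbol from GENCODE releases 44 and 21 (M21), out of 19970 human and 21755 mouse protein-coding genes on the autosomes and X. Every peak within 1 kb of any annotated start site of these genes was listed, and for MYC every peak whose midpoint lay within 2 Mb of its reference start. Merging the peaks of the 8 human libraries gave 417 regions in that window, out of 243200 in the genome.

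The proteins of the MYC family are basic helix-loop-helix leucine zipper transcription factors that pair with MAX, bind E-box sequences and drive growth, ribosome production and cell division. MYC is used by most dividing cells, MYCN mainly by embryonic, neural and renal precursors, and MYCL in fewer tissues. MYC lies in a gene desert, and enhancers far away on either side are known to reach its promoter in a cell-type-dependent way. In B cells transformed by Epstein-Barr virus, elements far upstream are known as MYC enhancers, and in blood progenitors and leukaemia a cluster far downstream, within and past CCDC26, is known.

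Bulk ATAC-seq, in which Tn5 transposase inserts adapters into open chromatin, was measured in 5 cell lines with 2 libraries each and no treatment. The blood lines are GM12878, B-lymphoblastoid cells made with Epstein-Barr virus, and K562, from an erythroleukaemia. The adherent ones are HFF1, fibroblasts from foreskin, and HEK293T, kidney cells of embryonic origin with the large T antigen of SV40. The mESC, stem cells of the mouse embryo, were grown without feeders in medium with leukaemia inhibitory factor. The labels do not say that the 2 libraries of a line came from separate cultures, so the spread between them may be technical. The files are peak lists, in which a fold is the authors' ratio of a peak's summit to the local background of its own library, and a list percentile is the rank of a peak's −log10 p within its own list, with 100 the strongest.

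Libraries held 52137 to 127359 human peaks, and 138349 and 142194 mouse peaks. HEK293T was the shallowest line, with a recovered background level of 0.465 and 0.466 reads per window against 1.71 to 2.43 in the other 6 human libraries. Of 5 defining marker genes per line, a promoter peak was present in both own libraries for 5 in GM12878 (CD79A, CD79B and MS4A1 in no other line), 5 in HFF1, 5 in mESC, 4 in HEK293T and 3 in K562. The K562 markers HBG1 and KLF1 had no promoter peak in any human library, and SOX11, listed for HEK293T, was open only in the HFF1 libraries.

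Each of the 6 genes had a promoter peak in every library of their species. MYC, MYCN and MYCL each had a peak within 1 kb of a start site in all 8 human libraries, as did 59.7% of protein-coding genes. Myc, Mycn and Mycl had one in both mESC libraries, as did 73.1% of mouse genes. The presence of a promoter peak was therefore common among genes, and the members differed in where the peaks lay.

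**Figure D1:**
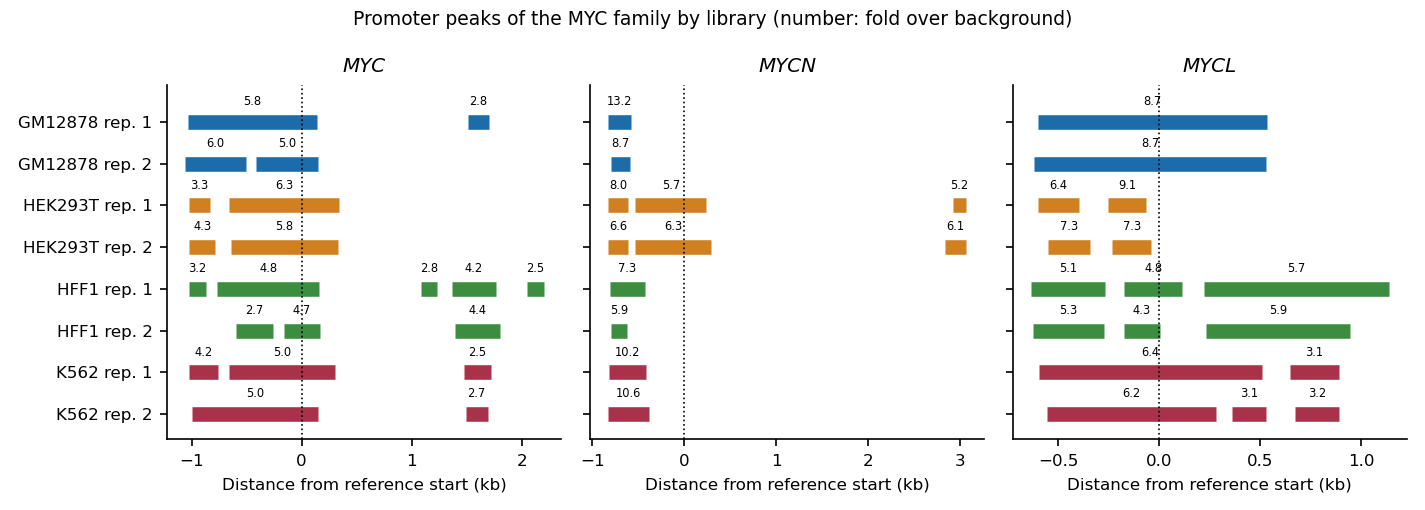
Promoter peaks of MYC, MYCN and MYCL in the 8 human libraries, drawn as bars by distance in kb from the reference start (dotted line) with upstream to the left; the number above a bar is the authors' fold. HEK293T is the line with a peak over the MYCN start, and at MYCL it is the line without one over the start.

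MYC encodes the family's broadly used member and lies on GRCh38 chr8:127735434-127742951, plus strand (ENSG00000136997), with 14 start sites from 15 transcripts and the reference start at 127736231. A peak covered that start in all 8 libraries, as at 46.1% of protein-coding genes. In both replicates of single lines that share was 59.3% in GM12878, 54.1% in HEK293T, 64.3% in HFF1 and 58.9% in K562. The fold of the MYC peak was 5.79 and 5.01 in GM12878, 6.35 and 5.80 in HEK293T, 4.80 and 4.68 in HFF1, and 4.97 and 5.00 in K562. HEK293T was highest and HFF1 lowest. GM12878 is not ranked, because the summit of its replicate 1 peak lay 890 bp upstream of the start, in an element that replicate 2 had as a separate peak with a fold of 5.99. The list percentile of this peak ran from 69.6 to 88.1.

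Downstream of the reference start, the lines differed in a second MYC element. A peak reaching over the start site area about 1.5 to 1.7 kb downstream was present in GM12878 replicate 1 (fold 2.82), in both HFF1 libraries (4.19 and 4.45) and in both K562 libraries (2.48 and 2.72). GM12878 replicate 2 and both HEK293T libraries had none. HFF1 was thus the line in which this element came near to the fold of the start itself. In both HFF1 libraries the same peak also counted as a promoter peak of the non-coding gene CASC11, whose annotation overlaps MYC. The local background under the MYC peaks was 10.1 to 10.2 reads per window in HEK293T and 15.0 to 21.2 in the other 6 libraries, and its part in the folds was not tested.

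MYCN, on GRCh38 chr2:15940550-15947007, plus strand (ENSG00000134323), is the member known from neuroblastoma and from kidney precursors. An element just upstream of it was open in all 8 libraries. Its fold was 13.2 and 8.65 in GM12878, 8.00 and 6.55 in HEK293T, 7.27 and 5.86 in HFF1, and 10.2 and 10.6 in K562. The folds of GM12878 and K562 lay above both HFF1 values and above HEK293T, whose replicate 1 was the nearest to them. The local background there was 1.95 and 1.89 reads per window in GM12878, against 3.38 to 4.71 in the other libraries. Its part in the folds was not tested. By list percentile the order differed, with 83.1 and 81.3 in K562, 73.1 and 61.9 in HEK293T, 69.8 and 45.5 in GM12878, and 58.7 and 41.8 in HFF1.

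The start of MYCN itself was covered by a peak in HEK293T alone. In HEK293T replicate 1 the peak ran from 529 bp upstream to 243 bp downstream of the reference start with a fold of 5.69, and in replicate 2 from 529 bp upstream to 288 bp downstream with a fold of 6.35. Both HEK293T libraries also had a peak at the start site near 3 kb downstream, with folds of 5.22 and 6.10. None of the other 6 libraries, all deeper than HEK293T, had a peak over any MYCN start site.

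Of all protein-coding genes, 0.646% (129 genes) had a peak over the reference start in both HEK293T replicates while all remaining human libraries lacked one. With a peak within 1 kb in all 8 libraries also required, as at MYCN, 0.0851% (17 genes) remained. The antisense gene MYCNOS, which starts beside MYCN, had a promoter peak in HEK293T alone, and it was the same peak. MYCNUT, a non-coding gene upstream of MYCN, had none in any library.

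The first of the following stretches is the part of the upstream MYCN element that lay inside a peak in all 8 libraries, and the second is the 250 bases before the MYCN start, which lay inside a peak in HEK293T alone. They are read 5′ to 3′ on the plus strand of GRCh38, chr2:15939756-15939931 and chr2:15940300-15940549, and capitals mark GGGCGG, the core of the motif bound by SP and KLF factors, on either strand.
MYCN upstream element: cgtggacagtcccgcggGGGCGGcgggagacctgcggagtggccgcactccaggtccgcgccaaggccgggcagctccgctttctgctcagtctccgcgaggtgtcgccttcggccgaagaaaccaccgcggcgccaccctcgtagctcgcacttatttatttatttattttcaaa
MYCN bases before the start: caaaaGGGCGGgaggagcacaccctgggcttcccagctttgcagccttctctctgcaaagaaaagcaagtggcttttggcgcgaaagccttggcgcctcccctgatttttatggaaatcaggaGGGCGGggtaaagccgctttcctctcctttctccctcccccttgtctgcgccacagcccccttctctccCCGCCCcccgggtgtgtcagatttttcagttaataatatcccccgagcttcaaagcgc
The upstream element had 63.6% G and C, 21 CpG and 1 match to GGGCGG, a match held by 44.1% of stretches of the same length centred in the regions called in all 4 lines. The 250 bases before the start had 57.2% G and C, 11 CpG and 3 matches, and 42.6% of human RefSeq promoters held 1 or more in such a stretch. The letters of the GATA, AP-1, RUNX, PU.1, CTCF, E-box, TEAD, OCT and E2F motifs spelled out further on were in neither window.

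MYCL, on GRCh38 chr1:39895428-39902256, minus strand (ENSG00000116990), is known from small-cell lung cancer. Its start was covered by 1 wide peak in both GM12878 libraries, 1133 and 1150 bp, with folds of 8.74 and 8.67. HFF1 had 3 separate peaks in each library, of which the one over the start had folds of 4.83 and 4.28. K562 had a peak of 1105 and 835 bp over the start with folds of 6.45 and 6.21, beside 1 and 2 smaller peaks downstream.

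HEK293T had 2 narrow MYCL peaks in each library, with folds of 9.14 and 6.36 in replicate 1 and of 7.28 for both in replicate 2, and none reached a start site. The nearest edge stopped 66 and 42 bp before the reference start. A peak over the reference start was present in both HEK293T libraries at 54.1% of protein-coding genes. Upstream of the outermost MYCL start site, a stretch at chr1:39902315-39902467 lay inside a peak in all 8 libraries and is printed on the minus strand; the libraries also shared a stretch nearer to the reference start, which is not printed.
MYCL shared stretch: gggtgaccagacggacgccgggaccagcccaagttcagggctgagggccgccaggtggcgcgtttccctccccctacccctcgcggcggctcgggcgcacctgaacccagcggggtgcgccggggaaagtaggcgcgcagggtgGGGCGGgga
It had 75.2% G and C, 17 CpG and 1 match to GGGCGG, in capitals.

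In mESC the 3 orthologues were each covered by a peak at the reference start (GRCm38). Myc, at chr15:61985391-61990374, had a peak over the start with folds of 4.21 and 4.51 and a second one beginning 1558 and 1323 bp downstream with folds of 3.41 and 4.11, so that here too a second peak lay downstream of the start. Mycn, at chr12:12936093-12941914 on the minus strand, had 1 peak of 1983 bp in replicate 1 with a fold of 3.84, and 2 peaks of 392 and 1527 bp over the same stretch in replicate 2 with folds of 3.43 and 3.74. Mycl, at chr4:122995652-123002485, had the highest rank of the 3, with list percentiles of 95.4 and 92.9.

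The bases before the Myc start are shown as a stretch open in both libraries, chosen after its motif matches were seen. They come from chr15:61985091-61985390, plus strand, with GGGCGG in capitals.
Myc bases before the start: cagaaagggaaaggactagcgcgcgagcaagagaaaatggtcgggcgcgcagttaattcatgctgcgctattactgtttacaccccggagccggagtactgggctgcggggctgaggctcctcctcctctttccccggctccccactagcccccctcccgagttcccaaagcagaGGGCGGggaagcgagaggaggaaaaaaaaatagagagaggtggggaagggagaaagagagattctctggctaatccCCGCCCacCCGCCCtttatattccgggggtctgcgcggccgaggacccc
Myc held 3 matches to GGGCGG in these 300 bases directly before its start. The stretch open before the Mycn start held 0, but it stops 254 bp before that start. The bases nearer to the Mycn start are not included, so the 2 counts are for unlike positions. No share over mouse promoters was computed. A match is a run of letters and says nothing of whether the factor was bound.

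The partners of the family were open throughout. The 13 network genes listed were MAX, the shared partner of all MYC proteins, the repressors MXD1, MXI1, MXD3, MXD4, MNT and MGA, the related MLX, MLXIP and MLXIPL, the binding proteins MYCBP and MYCBP2, and ZBTB17, known as MIZ1. Each of the 13 had a promoter peak in both replicates of all 4 human lines, where the share of genes called was 71.9% in GM12878, 67.8% in HEK293T, 76.2% in HFF1 and 70.4% in K562, and each of the 13 had one in mESC. MAX peaks stood at list percentiles of 90.6 to 97.9. MLX had the lowest rank of the 13 in HEK293T, at 8.83 and 0.631, against 67.2 to 81.1 in the other 6 human libraries. MGA stood at 39.5 and 49.0 in HEK293T, against 81.5 to 90.6 in the others.

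Peaks in the surroundings of MYC were counted next. The window held 127 and 148 peaks in GM12878, 63 and 60 in HEK293T, 204 and 187 in HFF1, and 130 and 117 in K562. The covered length was 44.5 and 49.2 kb in GM12878, 17.2 and 15.7 kb in HEK293T, 83.0 and 73.1 kb in HFF1, and 42.7 and 40.5 kb in K562. HFF1 was highest and HEK293T lowest on both measures, with no overlap of either with another line.

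Because lists differ in length, window peaks were set against all peaks of the library. Per 1000 library peaks the window held 1.34 ± 0.126 in GM12878 (SD, n = 2), 1.18 ± 0.0358 in HEK293T, 1.58 ± 0.0339 in HFF1 and 1.65 ± 0.00821 in K562. The lines differed by more than their replicates (eta squared, the share of variance between lines, 0.939, exact one-sided permutation p = 0.00952, the smallest that the pairings of 8 libraries can give, adjusted p = 0.0159 over 5 tests). This call did not hold in the lists thinned to the HEK293T background level (exact permutation p = 0.0857) or without HEK293T replicate 1 or 2 (exact permutation p = 0.0667 and 0.0762). In the 20000 strongest peaks of each library the order changed, to 1.40 in HFF1, 1.075 in HEK293T, 0.975 in K562 and 0.800 in GM12878. Within 1 Mb of MYC it was 1.11 in HFF1, 0.988 in GM12878, 0.866 in K562 and 0.631 in HEK293T. In thinned lists HFF1 had 1.59 ± 0.194 and K562 1.47 ± 0.137 (SD, n = 2). K562 stayed highest within 3 Mb (3.22) and at a −log10 q of at least 5 (1.65).

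Covered length separated the lines as well (eta squared of the log10 length 0.993, exact one-sided permutation p = 0.00952, adjusted p = 0.0159). Mean covered length was 46.9 ± 3.34 kb in GM12878, 16.5 ± 1.05 kb in HEK293T, 78.1 ± 7.00 kb in HFF1 and 41.6 ± 1.53 kb in K562 (SD, n = 2). HEK293T was also the shallowest line. After thinning, the lengths were 37.9 kb, 16.5 kb, 56.7 kb and 27.3 kb in that order of lines.

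The positions of the peaks were shared within a line and little between lines. The Jaccard index, the base pairs shared by 2 libraries over those in either, was 0.671 between the GM12878 libraries, 0.579 in HEK293T, 0.679 in HFF1 and 0.647 in K562. Between libraries of different lines it averaged 0.128 (24 pairs), and the difference of 0.516 exceeded that of every other pairing (exact one-sided permutation p = 0.00952, adjusted p = 0.0159). HEK293T and K562 were the most alike pair of lines, with a mean of 0.214, and GM12878 and HFF1 the least, with 0.0816. Of the peaks in the window, 74.6% to 91.4% per human library were found again in the other replicate, against 79.5% to 89.4% over whole lists.

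**Figure D2:**
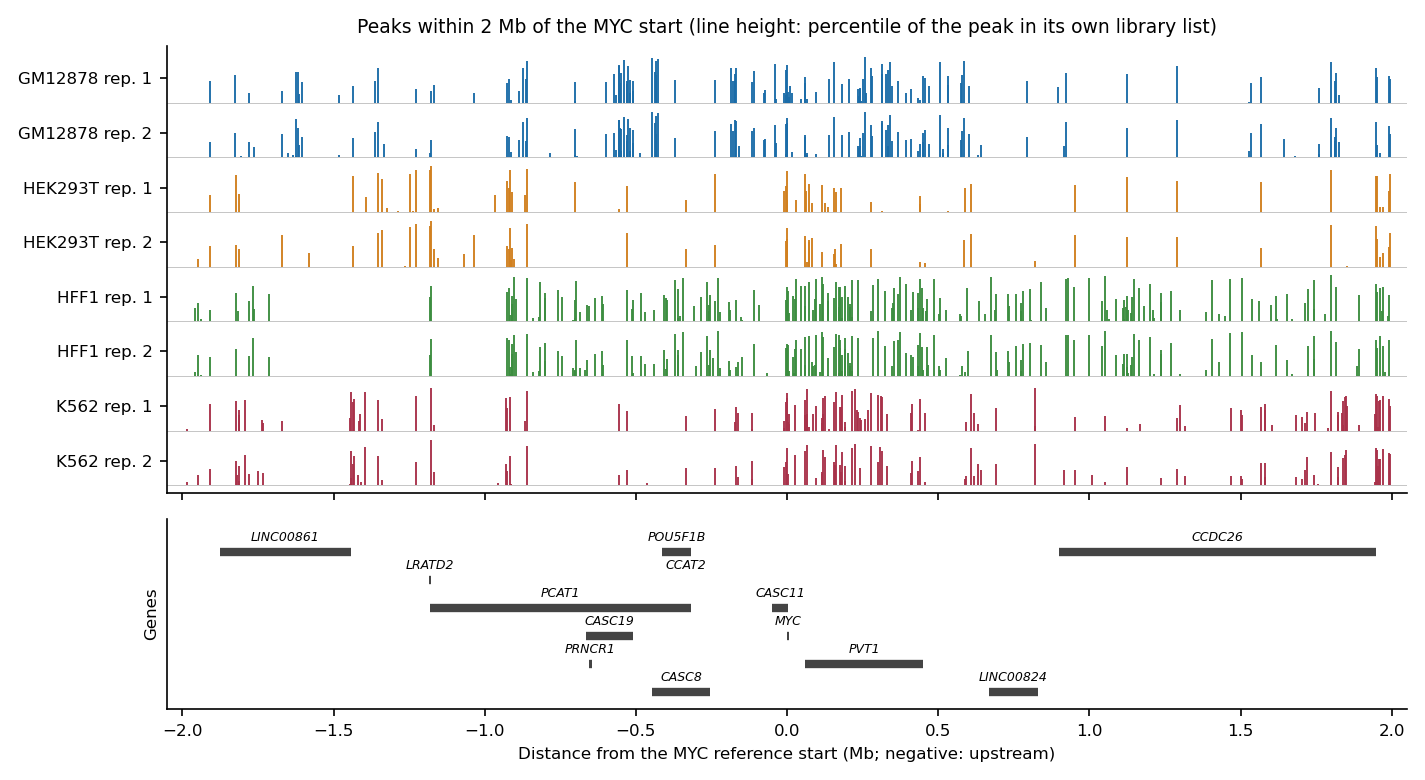
Every peak within 2 Mb of the MYC reference start in the 8 human libraries, by distance in Mb, with line height giving the peak's list percentile and gene bodies drawn below. The replicates of a line resemble each other, with dense GM12878 peaks near 0.5 Mb upstream, HFF1 peaks on both sides to beyond 1 Mb downstream, and K562 peaks between 1.5 and 2 Mb downstream.

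The side of MYC on which peaks lay also differed. On the upstream, 5′ side lay 49.6% and 50.7% of the window peaks in GM12878 and 52.4% and 53.3% in HEK293T. It was 34.3% and 35.8% in HFF1 and 31.5% and 35.9% in K562, so that HFF1 and K562 overlapped each other and lay below both other lines. The lines differed in this share (eta squared 0.981, exact one-sided permutation p = 0.0381, adjusted p = 0.0476). With only pairings that keep the replicate numbers apart, the exact permutation p was 0.0833. Within 1 Mb of MYC the mean upstream share was 49.7% in GM12878, 43.9% in HEK293T, 42.0% in HFF1 and 28.6% in K562. Within 3 Mb it was 51.9%, 44.9%, 41.2% and 42.9% in that order of lines. Which lines lay together thus depended on the window.

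The far downstream stretch between 1.5 and 2 Mb, where blood enhancers of MYC are known, held 31 and 26 peaks in K562. It held 12 and 19 in GM12878, 8 and 9 in HEK293T, and 23 and 19 in HFF1. As a share of window peaks this was 23.8% and 22.2% in K562, against 9.45% and 12.8% in GM12878, 12.7% and 15% in HEK293T, and 11.3% and 10.2% in HFF1. K562 did not overlap another line, yet the test over the 4 lines did not pass (eta squared 0.95, exact one-sided permutation p = 0.0667, adjusted p = 0.0667). It passed in the 20000 strongest peaks (exact permutation p = 0.0476), at a −log10 q of at least 5 (p = 0.0286) and without GM12878 replicate 1 or replicate 2 (p = 0.0286 each). In the 20000 strongest the mean share was 20.5 ± 0.744% in K562 and 18.5 ± 5.97% in HEK293T (SD, n = 2). It was 12.5% in HFF1 and 6.25% in GM12878, so K562 did not stand apart from HEK293T there.

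Counts by distance showed different lines in the lead at different distances. Between 10 and 100 kb downstream all lines had peaks, 7 and 7 in GM12878, 5 and 5 in HEK293T, 11 and 12 in HFF1, and 8 and 5 in K562. Between 100 and 500 kb upstream GM12878 had 14 and 16 and HFF1 26 and 24, against 2 and 2 in HEK293T and 7 and 7 in K562. Between 0.5 and 1 Mb upstream GM12878 (25 and 30) and HFF1 (28 and 30) again stood above HEK293T (10 and 8) and K562 (7 and 8).

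From 1 to 1.5 Mb upstream the order was the other way round, with 2 and 2 peaks in HFF1 against 8 and 8 in GM12878, 13 and 12 in HEK293T, and 12 and 13 in K562. From 1 to 1.5 Mb downstream HFF1 had 31 and 22, K562 7 and 7, and GM12878 and HEK293T 2 in each library. These counts by distance were not tested.

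**Figure D3:**
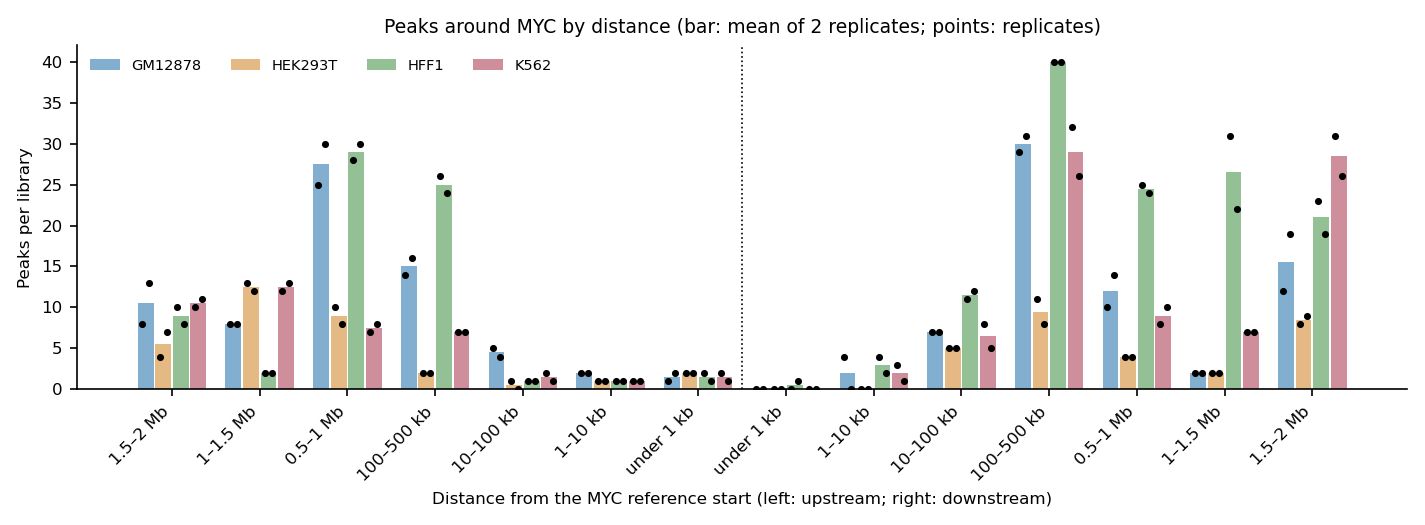
Peaks per library by distance from the MYC reference start, upstream left and downstream right of the dotted line, as the mean of 2 replicates (bars) with both replicates (points). HFF1 alone is high from 1 to 1.5 Mb downstream (31 and 22 peaks), and K562 is the highest line from 1.5 to 2 Mb downstream (31 and 26).

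Few regions of the MYC window were open in every line. Of the 417 regions, 12 were called in all 4 lines, 24 in 3, 36 in 2 and 231 in 1, and 114 in none because no line had a peak in both replicates. The share called in all 4 lines was 2.88%, against 8.53% of all regions in the genome. Both shares include regions at promoters. Away from promoters lay 10 of the 12 in the window and 9529 of the 20741 in the genome. A share among such distal regions alone was not computed, so the 2 shares are not like for like. A region was specific to a line when both of its libraries and no library of another line had a peak there.

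GM12878 had 62 specific regions among 114 called (54.4%, against 40.6% genome-wide), HFF1 109 among 165 (66.1%, against 50.5%) and K562 37 among 98 (37.8%, against 25.4%). HEK293T had 3 among 46 (6.52%, against 10.8%). In these lists the share was above that of the genome in 3 lines and below it in HEK293T, without a test. Both shares are out of all called regions, those at promoters included, and shares among distal regions alone were not computed. Thinned to the HEK293T background level, the specific regions numbered 44 in GM12878 (54.3% of those called), 5 in HEK293T (11.1%), 52 in HFF1 (63.4%) and 11 in K562 (25.6%). Without HEK293T replicate 1 that line had 6 (10.5%), and without replicate 2 it had 8 (13.1%). Set against the genome's share in the full lists, thinned HEK293T was no longer below it and thinned K562 was close to it. The genome's share in thinned lists was not computed, so these thinned values have no like-for-like comparison.

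**Figure D4:**
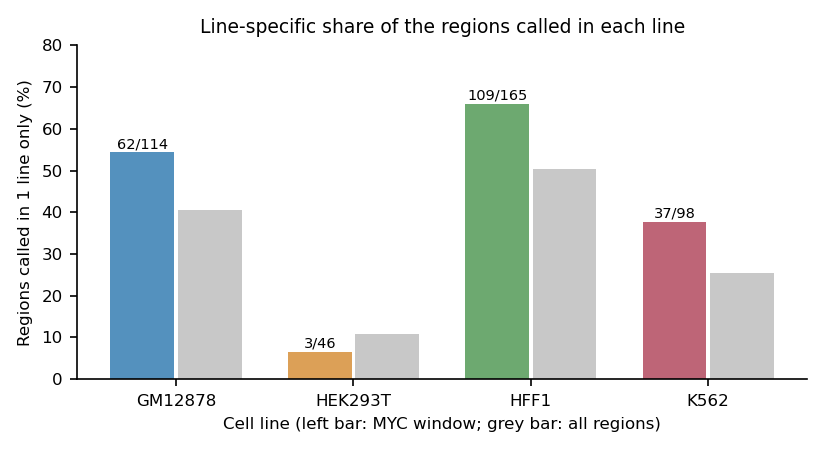
Percent of the regions called in each line that were specific to it, in the MYC window (coloured bars, with counts) and over all regions (grey bars). The coloured bar stands above the grey one in GM12878, HFF1 and K562 and below it in HEK293T.

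Groups were here at least 4 specific regions with gaps of at most 50 kb, a rule that a line with more regions meets more readily. The groups expected from the density of regions alone were not computed. Many of the GM12878-specific regions lay in such groups. The groups held 12 regions from 599.6 to 509.3 kb upstream in CASC19 and PCAT1, 5 from 447.8 to 428.4 kb upstream in PCAT1 and CASC8, 7 from 77.1 kb upstream to 59.5 kb downstream, and 15 from 206 to 469.9 kb downstream in PVT1 and beyond it, beside 2 groups of 4. Non-coding genes of this side are known from cancer risk regions, and PVT1 is a long non-coding RNA gene next to MYC. The group of 5, chr8:127288008-127308064, held 5 and 5 GM12878 peaks, 1 and 1 in HFF1, and none in HEK293T or K562.

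It also held the 3 strongest GM12878-specific regions by list percentile. The first, an intron of PCAT1 447.8 kb upstream (chr8:127288008-127288784), had folds of 15.8 and 17.0 and percentiles of 95.8 and 97.3. The second, 428.4 kb upstream (chr8:127307629-127308064), had folds of 11.2 and 12.2. The third, 433.4 kb upstream, had folds of 7.38 and 7.29.

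The HFF1-specific regions were the most numerous and the most spread. A chain of 31 ran from 18.01 to 597 kb downstream through PVT1, 14 lay from 839.9 to 607.9 kb upstream in PCAT1 and CASC19, and 16 lay from 998 to 1269 kb downstream in CCDC26, a non-coding gene known from blood cancers. In the CCDC26 stretch HFF1 had 26 and 18 peaks, K562 3 and 4, and GM12878 and HEK293T 1 in each library. The strongest HFF1-specific region lay there, 1052 kb downstream (chr8:128787500-128788162), with folds of 15.0 and 14.6 and percentiles of 97.5 and 95.8. The next were 228.5 kb upstream between genes (folds 10.9 and 12.6) and 344.8 kb upstream in the introns of CASC8, PCAT1 and POU5F1B (11.7 and 12.9).

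K562 had a group of specific regions in another part of CCDC26. Of its 37 specific regions 14 lay in this gene (37.8%), against 27 of 109 in HFF1 (24.8%) and 6 of 62 in GM12878 (9.68%). The gene spans 1050 kb of the 4 Mb window, so many regions in it are likely from its length, and these shares were not tested. A compact group of 5 lay 1821 to 1847 kb downstream (chr8:129556936-129583826), where K562 had 7 and 5 peaks, GM12878 1 and 1, and HEK293T and HFF1 none. Just before it, 1816 kb downstream, a CCDC26 region was called in GM12878 and HFF1 and in no library of the other lines.

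Of the K562-specific regions the strongest lay in an intron of PVT1 224 kb downstream (chr8:127959939-127960918), with folds of 8.52 and 8.68 and percentiles of 90.7 and 89.6, and held the letters AGATAA of the GATA motif at its summit. The others of the first 3 lay 1443 kb upstream between genes (folds 10.0 and 8.48) and 309 kb downstream in an exon of PVT1 (5.30 and 6.26). PVT1, which spans 393 kb of the window, in all held 15 regions specific to GM12878, 21 to HFF1, 8 to K562 and 1 to HEK293T.

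The 3 HEK293T-specific regions lay 1248 kb upstream (folds 13.3 and 14.02), 82.2 kb downstream in PVT1 (6.07 and 9.35) and 1156 kb upstream in PCAT1 (5.57 and 6.43). The region in PCAT1 ranked low, at list percentiles of 7.93 and 18.2. HEK293T shared 7 regions with K562 and with no other library (1.68% of the 417 regions, against 0.591% in the genome), among them the exon of CCAT2, a non-coding gene 335 kb upstream. It shared 0 with HFF1 alone (0.715% in the genome) and 0 with GM12878 alone (0.593%). GM12878 and K562, the 2 blood lines, shared 1 (0.240%, against 1.18%), 117.6 kb upstream, with folds of 8.85 and 11.0 in GM12878 and 5.12 and 6.65 in K562, and its summit held both AGATAA and TGANTCA. GM12878 and HFF1 shared 9 (2.16%, against 2.63%), and HFF1 and K562 shared 9 (2.16%, against 1.26%), of which 5 lay in PVT1. None of these shares was tested.

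The 12 regions open in all 4 lines were spread over the whole window, from 1907 kb upstream to 1990 kb downstream. The strongest lay 859.4 kb upstream in PCAT1, with folds of 12.9 to 16.7, and the second 1800 kb downstream in CCDC26 (chr8:129535631-129536300), with folds of 15.9 to 19.2 in the 6 libraries of the other lines and of 10.8 and 8.69 in K562. Next in rank among the 12 came the MYC promoter, a CCDC26 region 1946 kb downstream and the promoter of LRATD2.

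LRATD2 is, with POU5F1B, the only other protein-coding gene that starts within 2 Mb of MYC. Its promoter peak stood at list percentiles of 98.3 and 97.9 in HEK293T, 91.9 and 97.1 in K562, 75.1 and 78.8 in HFF1, and 26.2 and 36.6 in GM12878. By percentile the lines did not overlap, and GM12878 was far below the others. By fold GM12878 (6.64 and 7.68) overlapped HFF1 (7.31 and 7.86). HEK293T had a fold of 10.5 in each library, and K562 had 11.8 and 13.8. A start site of PCAT1 lies beside it and shares the peak. POU5F1B, a retrogene of POU5F1, had no promoter peak in any library.

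Of 13 listed non-coding neighbours, 9 were found under those names in the annotation. PVT1, CASC11, CASC19, PCAT1 and CCDC26 had a promoter peak in all 8 libraries. A peak near any start site counted, and in GM12878 replicate 2 CASC19 had 13 such peaks and PVT1 9. No share over non-coding genes was computed, so how common such calls are is not known here. CASC8 had one in HFF1 alone (list percentiles 56.0 and 55.6), LINC00824 in HFF1 and K562, CCAT2 in HEK293T and K562, and PRNCR1 in HFF1 replicate 1 alone. The lines in which CASC8, LINC00824 and CCAT2 were called differed from gene to gene, without a test.

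Motif letters were searched on both strands within 50 bp of the summit of the line-specific regions. They were AGATAA for GATA factors, TGANTCA for AP-1, TGTGGTT for RUNX, GAGGAAGT for PU.1, CACGTG for the E-box, GGAATG for TEAD, ATGCAAAT for OCT and the core motif of the insulator protein CTCF. GCGGGAA for E2F and GGGCGG were searched in the promoters only, and the strings do not contain one another. In K562 the GATA letters were in 8 of 37 regions (21.6%, exact 95% binomial interval 9.83 to 38.2%), against 21.7% of K562-specific regions of the genome. In GM12878 the AP-1 letters were in 14 of 62 (22.6%, interval 12.9 to 35.0%), against 11.7%, and the PU.1 letters in 5 (8.06%, interval 2.67 to 17.8%), against 4.64%. The GATA share of K562 near MYC was close to that of its genome, and the AP-1 share of GM12878 lay above its own.

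The RUNX letters were in 0 of the 62 GM12878 regions, against 7.67% in the genome, and in 1 of 62 within 100 bp of the summit. For the count of 0, the exact two-sided 95% binomial interval ends at 5.78%, and 3 counts of the total would be 4.84%. In HFF1 the AP-1 letters were in 22 of 109 regions (20.2%, interval 13.1 to 28.9%), against 25.2%, and the TEAD letters in 11 (10.1%, interval 5.15 to 17.3%), against 12.2%. Within 100 bp the HFF1 AP-1 share was 36.7%, against 32.3%, so its side of the genome's value depends on the width. Intervals cover counting error only, and regions of 1 cluster are not independent.

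Of 10 distal regions open in all 4 lines, 3 held the CTCF core (against 27.3% in the genome), at 1824 kb upstream, 2.03 kb upstream and 1990 kb downstream. The regions specific to GM12878, HFF1 and K562 held none within 50 bp, where the genome's shares were 1.47%, 0.627% and 1.47%, so that 0 was near the background in each. The shared region 2.03 kb upstream stood at list percentiles of 46.1 to 72.8.

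The windows of MYCN and MYCL were described in the same way. Per 1000 library peaks the MYCN window held 0.891 ± 0.00545 in GM12878 (SD, n = 2), 1.13 ± 0.0587 in HEK293T, 0.476 ± 0.00376 in HFF1 and 1.41 ± 0.00391 in K562. HFF1 was lowest and K562 highest, and K562 exceeded HFF1 2.97-fold, or 5.77-fold within 1 Mb.

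From 1.5 to 2 Mb downstream of MYCN lay 29 and 28 peaks in HFF1, 26 and 29 in GM12878, and 25 and 24 in K562. HEK293T had 10 and 13 there. From 0.5 to 1 Mb downstream HFF1 had 4 and 3, against 25 and 22 in GM12878, 10 and 10 in HEK293T, and 23 and 20 in K562. Between 10 and 100 kb downstream GM12878 and HEK293T had 1 peak in each library, HFF1 0, and K562 2 and 0. Upstream at that distance HEK293T had 1 in each library and every other human library 0.

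The MYCL window was dense in every line, with 282 and 285 peaks in GM12878, 116 and 112 in HEK293T, 287 and 271 in HFF1, and 235 and 216 in K562. Per 1000 library peaks this was 2.76 ± 0.0176, 2.18 ± 0.0452, 2.25 ± 0.00113 and 3.01 ± 0.0298 in that order of lines (SD, n = 2), a highest-to-lowest ratio of 1.38. Among the windows of all protein-coding genes, MYC ranked at the 15.4th to 38.7th percentile of peak number, MYCN at the 2.75th to 30.3rd and MYCL at the 69.3rd to 83.6th. MYC and MYCN therefore lay in sparser surroundings than most genes, and MYCL in denser ones, in each of the 8 libraries.

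**Figure D5:**
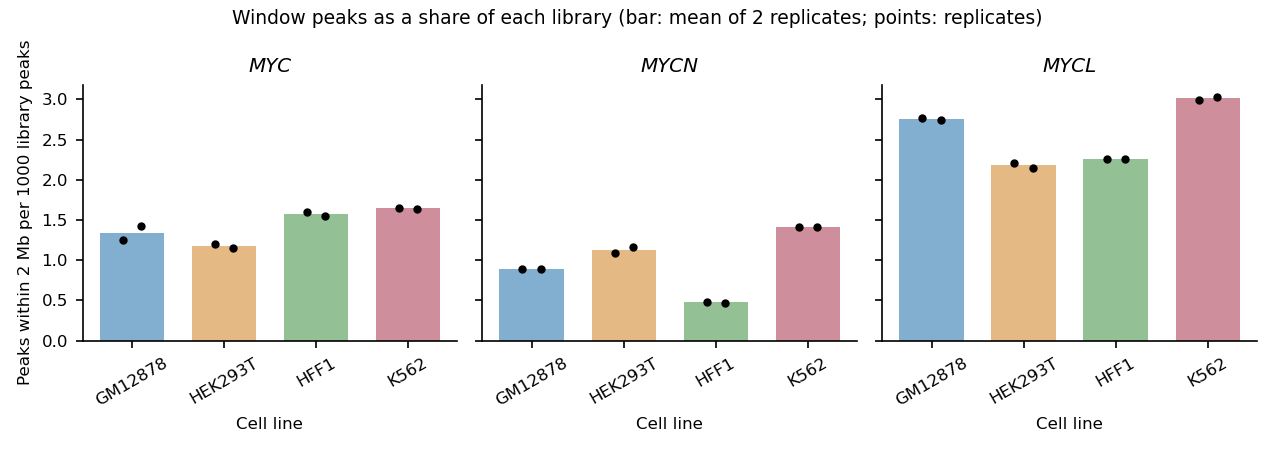
Peaks within 2 Mb of MYC, MYCN and MYCL per 1000 library peaks in each human line, as the mean of 2 replicates (bars, from 0) with both replicates (points). In these full lists and this window, HFF1 is lowest at MYCN (0.476) and K562 highest at all 3 genes.

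In mESC the Mycl window was the densest of the 3. Per 1000 library peaks the Myc window held 0.759 and 0.710, the Mycn window 0.940 and 0.942, and the Mycl window 1.99 and 1.91. These windows ranked at the 8.67th and 7.097th percentile of mouse gene windows for Myc, at the 13.7th and 13.3rd for Mycn and at the 45.2nd and 42.1st for Mycl. Upstream of Myc lay 37.1% and 37.6% of its peaks, and 23 and 19 peaks lay 1.5 to 2 Mb downstream. Human and mouse values were not tested against each other, since the lists are on different genomes.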

How the data were processed

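Bulk ATAC-seq peak lists of 10 libraries were used, 1 per library with replicates not pooled. Per the labels' protocols, about 20000 sorted nuclei went into each library, PCR ran for 15 cycles and the size range kept was 200 to 700 bp. The submitters' processing notes name cutadapt 3.2, Bowtie2 2.4.2, Picard and MACS2 2.2.7.1 and the builds hg38 and mm10, with no role or order. The deposited fold (a ratio), −log10 p, −log10 q and score are the authors' values. Ranks and filters used them within a list only, and folds of different libraries were set side by side as description, without a test. The read shift, duplicate handling and peak-calling options are not given in the sources used here.

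Only autosomal and X-linked peaks entered. Pileup and background, in reads per window, were recovered from fold and −log10 p for 100% of peaks in every library, and the lowest common background is called the background level. Regions were merged from overlapping peaks of the 8 human libraries, and 1 bp of overlap counted. Line groups came from the labels. Per-library values were compared by an exact one-sided permutation test over every way of pairing the 8 libraries with Benjamini-Hochberg adjustment over 5 tests; single lines, 2 against 2, were not tested against each other. The scripts were tested on simulated data. Alternatives were shorter, stricter and thinned lists, other window and motif widths, a replicate block and leaving out each library. Python 3.11.15, numpy 2.4.6, scipy 1.17.1, pandas 2.3.3 and pysam 0.24.0 were used. Promoter and motif sequences were read from GRCh38 and GRCm38, and promoter shares from the RefSeq table (GRCh38.p14).

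The members and the gene, marker and motif lists were chosen with earlier results of these data known, and the E2F and GGGCGG letters and the groups of regions within 50 kb after the values were seen. Named regions were the 3 with the highest mean list percentile among those specific to each line, the 5 called in all 4 lines and those shared by the blood or the adherent lines; others named were chosen after their values were seen.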

Additional observations from a re-analysis of the deposited data

How the results depend on the processing

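Of the recomputed values, 135 kept their call or stayed close to the main value, 4 calls were lost, 4 were gained and 22 values moved, some by little. The cause was not tested. Covered length and the Jaccard difference kept their call under every alternative run. Eta squared of the per-1000 value was 0.771 in thinned lists and 0.919 to 0.992 without single libraries. For the far downstream share it was 0.862 in the 20000 strongest peaks, 0.967 at −log10 q of at least 5, and 0.919 to 0.977 without single libraries. With the replicate block, the upstream share had eta squared 0.994 (exact permutation p = 0.0833, smallest possible 0.0417) and no other call changed. Replicate numbers carry no stated pairing, and replicate 1 lay above its line's mean in 3 of 4 lines for the per-1000 value, 3 for covered length, 0 for the upstream share and 2 for the far downstream share.

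MYCN had a promoter peak in 5 libraries with 500 bp. In the 20000 strongest peaks it had one in 4, MYCL in 5, Myc and Mycn in 0, and 0 libraries had one over the MYCN start. Specific regions with 1 replicate sufficing were 11 in HEK293T and 59 in K562. They were 9 (GM12878), 8 (HEK293T), 18 (HFF1) and 8 (K562) in the 20000 strongest, and 5 (HEK293T), 52 (HFF1) and 11 (K562) thinned. Without single libraries they ranged over 62 to 87 in GM12878, 3 to 8 in HEK293T, 109 to 141 in HFF1 and 37 to 52 in K562. The highest-to-lowest ratio was 5.77 at MYCN and 1.40 at MYCL within 1 Mb, and 3.01 and 1.37 at −log10 q of at least 5; the lowest line at MYCL was then HFF1 in place of HEK293T under both. The HFF1 AP-1 share within 100 bp of the summit was 36.7%, above the genome's 32.3%, while within 50 bp it was below it. The low depth of HEK293T limits its counts of peaks and specific regions, and its shares rest on 60 and 63 window peaks.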

Other observations

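Of the 24 regions of the MYC window called in 3 of the 4 lines, 12 were called in GM12878, HEK293T and K562, 5 in GM12878, HFF1 and K562, 5 in HEK293T, HFF1 and K562, and 2 in GM12878, HEK293T and HFF1. The stretch near LINC00861 differed between the blood lines, with a group of 4 GM12878-specific regions 1624 to 1603 kb upstream, where no other human library had a peak, and a group of 4 K562-specific regions 1446 to 1411 kb upstream, where K562 had 6 and 7 peaks, GM12878 and HEK293T 1 in each library and HFF1 none.

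In mESC the Mycl window was lopsided, with 17.5% and 18.5% of its peaks upstream, and 0 in either library between 0.5 and 1 Mb upstream against 67 and 62 between 0.5 and 1 Mb downstream. The Myc window had 1 peak in each library between 100 and 500 kb upstream and 20 and 23 at the same distance downstream.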
